A study of Mus musculus with 10 samples.

Results

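The core autophagy genes are the 39 genes listed for the machinery that builds an autophagosome and for the receptors that load it. They were listed by name, with no measured value in the rule but with earlier results of these data known, out of 51707 genes to which a listed transcript could be assigned. All 39 were found in the transcript tables, as 272 transcript models, and all 39 passed the filter on low counts. The value of a gene in a library was the sum over its transcript models, of estimated counts for tests and of TPM (a level per library total that is corrected for transcript length) for levels.

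Macroautophagy encloses cytoplasm in a double membrane that closes into an autophagosome and then fuses with a lysosome. A kinase complex starts the process, a lipid kinase marks the site, transfer proteins supply membrane, and a pair of conjugation systems attach small ubiquitin-like proteins of the ATG8 family to the membrane, where receptors bind them with their cargo. Pancreatic ductal adenocarcinoma (PDAC) is known for a high basal level of autophagy, and pancreatic stellate cells (PSCs), the fibroblast precursors of the pancreas, are among the stromal cells that supply such tumours with nutrients. The process is regulated to a large extent by protein modification and turnover, which RNA levels do not show.

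The 10 libraries were made from epithelial cells that had been flow-sorted from PDAC tumours. The tumours grew in mice after T6-LOH organoids, from the KPC tumour model, had been placed in the pancreas together with PSCs. In 5 libraries the PSCs were the line labelled PSC4 ROSA (egfr), which is the Egfr WT PSC group of the series title, and these are called WT1 to WT5. In the other 5 they were the line labelled PSC4 EGFR KO B4, which carries the Egfr knockout, and these are called KO1 to KO5. Each group therefore rests on 1 named line, the knockout group on B4, and Egfr genotype and line cannot be told apart. The title names NSG mice, which are immunodeficient, and the strain label of all libraries is C57BL/6J. The age of the mice and the markers of the sort are not stated in the labels. Egfr was knocked out in the co-transplanted cells and not in those sequenced, so its level in these libraries is no check of the labels. Whether every library comes from a mouse of its own is not stated, and the p-values here reflect only how these 10 libraries scatter, which may in part be technical.

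Libraries held between 39534055 and 53816086 estimated counts, of which the 39 genes took between 0.325% and 0.408%. Epithelial markers (Epcam, keratins and others, 7 genes) summed to between 14170 and 25290 CPM (counts scaled to a fixed library total) in every library. Markers of other cells were present at lower levels: 12 fibroblast and stellate markers summed to between 353 and 1269 CPM, 12 macrophage markers to between 224 and 468 CPM, and 7 endothelial markers to between 8.93 and 47.6 CPM. Erythroid markers (5 genes, mostly globins) summed to between 6.50 and 42.4 CPM in the Egfr WT PSC libraries and to between 0.905 and 3.55 CPM in the Egfr KO PSC libraries, without overlap (exact two-sided permutation test, p = 0.00794, the smallest that 5 against 5 libraries allow). Macrophage markers lay between 275 and 468 CPM in Egfr WT PSC and between 224 and 337 CPM in Egfr KO PSC (exact permutation p = 0.0635). Acinar markers (6 genes) summed to between 77.4 and 299 CPM and neutrophil markers (5 genes) to between 1.93 and 5.55 CPM. In the lists other than erythroid and macrophage the exact permutation p of the sums lay between 0.468 and 0.762. These p were not adjusted over the 7 marker lists. Marker by marker, 9 of 12 fibroblast and stellate genes were lower in Egfr KO PSC and 3 higher. Of the 7 endothelial genes 7 were lower, and of the 7 epithelial genes 2 were lower and 5 higher. In sorted bulk material, fewer cells of a type and less RNA per cell cannot be told apart. The marker scores used below as covariates are the mean log2 CPM of a list's markers in a library. They weigh markers differently from the sums. WT5 had the highest macrophage sum (468 CPM) with a score of 1.25, and WT2 had the highest score, 2.47.

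The ATG8 family has 5 related genes among the members, and its coding sequences are given first because the last bases carry the site on which the pathway turns. ATG4 proteases cut each precursor after a glycine, and the exposed glycine is then joined to phosphatidylethanolamine. Each gene is shown by its most abundant complete protein-coding model that ends with the glycine motif. The motif was thus a condition of the choice. The models are Map1lc3a-201, Map1lc3b-201, Gabarap-201, Gabarapl1-201 and Gabarapl2-201. Gabarap-202, which did not meet this condition, held 49.1% of the TPM of Gabarap, and Gabarap-201 held 48.6%. Map1lc3a-201 held 9.11% of the TPM of Map1lc3a. The ends of the 5 coding sequences, from GENCODE M21 transcripts, run 5′ to 3′ up to the stop codon, with the glycine codon in capitals.
Map1lc3a: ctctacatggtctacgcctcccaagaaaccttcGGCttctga
Map1lc3b: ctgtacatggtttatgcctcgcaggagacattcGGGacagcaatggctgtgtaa
Gabarap: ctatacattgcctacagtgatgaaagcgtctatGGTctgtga
Gabarapl1: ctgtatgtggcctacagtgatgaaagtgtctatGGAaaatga
Gabarapl2: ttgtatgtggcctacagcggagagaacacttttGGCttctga
In Map1lc3b 5 codons follow the glycine, and in each of the other 4 genes 1 codon does. The glycine is codon 120 in both LC3 genes and codon 116 in the 3 GABARAP genes. Over the whole coding sequence, Map1lc3a and Map1lc3b were identical at 74.7% of aligned bases, and Gabarap and Gabarapl1 at 74.9%. The other 8 pairs lay between 50.7% and 64.5%.

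The levels of the 39 genes spanned more than 2 orders of magnitude, from 449 TPM for the mitophagy receptor gene Bnip3l to 1.39 TPM for Ulk2, an initiating kinase gene. Receptors held 39.9% of the summed TPM of the 39 genes and the ATG8 family 32.5%. Initiation and class III PI3 kinase genes held 7.92% and 8.40%, and the lipid transfer, conjugation, ATG4 and fusion groups between 1.68% and 3.77% each. The 5 most abundant genes, Bnip3l, Map1lc3b, Sqstm1, Gabarap and Tax1bp1, together held 56.0%. Of the 39 genes, 8 had a mean above 100 TPM and 10 a mean below 10 TPM. The summed TPM was 2952 ± 161 (SD, n = 5) in Egfr WT PSC and 2943 ± 254 (SD, n = 5) in Egfr KO PSC. The lowest sum was 2496 in KO3, and the other 9 libraries lay between 2745 and 3175.

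**Figure D1:**
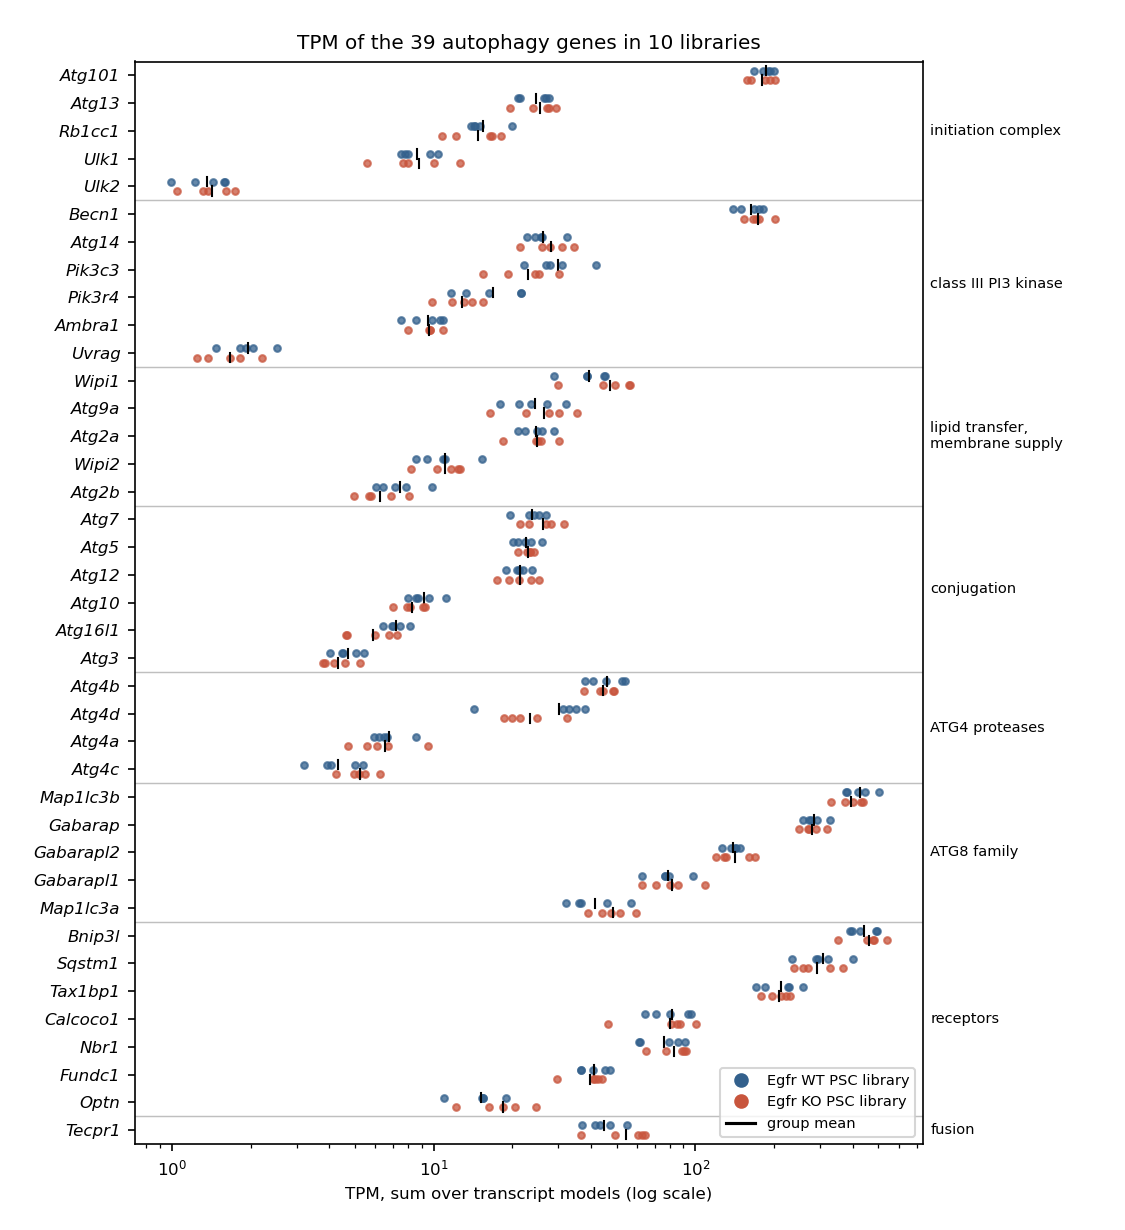
TPM of each of the 39 genes on a log axis, with 1 point per library, Egfr WT PSC in blue above Egfr KO PSC in red, and a black tick at each group mean. Genes are ordered by mean level within their role, and the points of both groups overlap in all 39 rows, from Bnip3l at 449 TPM to Ulk2 at 1.39 TPM.

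Between Egfr KO PSC and Egfr WT PSC, 0 of the 39 genes passed the edgeR quasi-likelihood test at an adjusted p of 0.05, as did 0 of all 17495 genes tested (0.0%). Tecpr1, whose product takes part in autophagosome maturation, was the only member with an unadjusted p under 0.05 in that test (1 of 39, 2.56%, against 8.15% of all genes). DESeq2 called 131 genes (0.749%) and limma voom 3 genes (0.0171%), and neither called any of the 39. At an unadjusted p under 0.05 DESeq2 had 1 of the 39 (9.43% of all genes) and limma voom 4, Atg7, Atg4c, Optn and Tecpr1 (13.0% of all genes). In 0 of the 39 did the CPM of the groups not overlap, against 1.52% of all genes. Log2 fold changes (Egfr KO PSC relative to Egfr WT PSC) were above 0 for 21 members and below 0 for 18, where 50.1% of all genes were above 0. Their median was 0.0085, and that of all genes was 0.00041.

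The intervals show how large a difference the edgeR fit without covariates leaves room for. Those of the fits with covariates are not given here. For all 39 genes the 95% interval of the fold change lay within 2-fold in either direction, against 72.1% of all genes and 92.9% of the 9005 genes with at least 10 CPM. For 30 of the 39 it lay within 1.5-fold, against 42.4% of all genes. Among the 33 members with at least 10 CPM, 25 had an interval within 1.5-fold, against 71.8% of genes at that level. The spread between libraries of a group was also near that of other genes of like level. The median residual SD of log2 CPM was 0.242 for those 33 members and 0.232 for the 9005 genes.

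**Figure D2:**
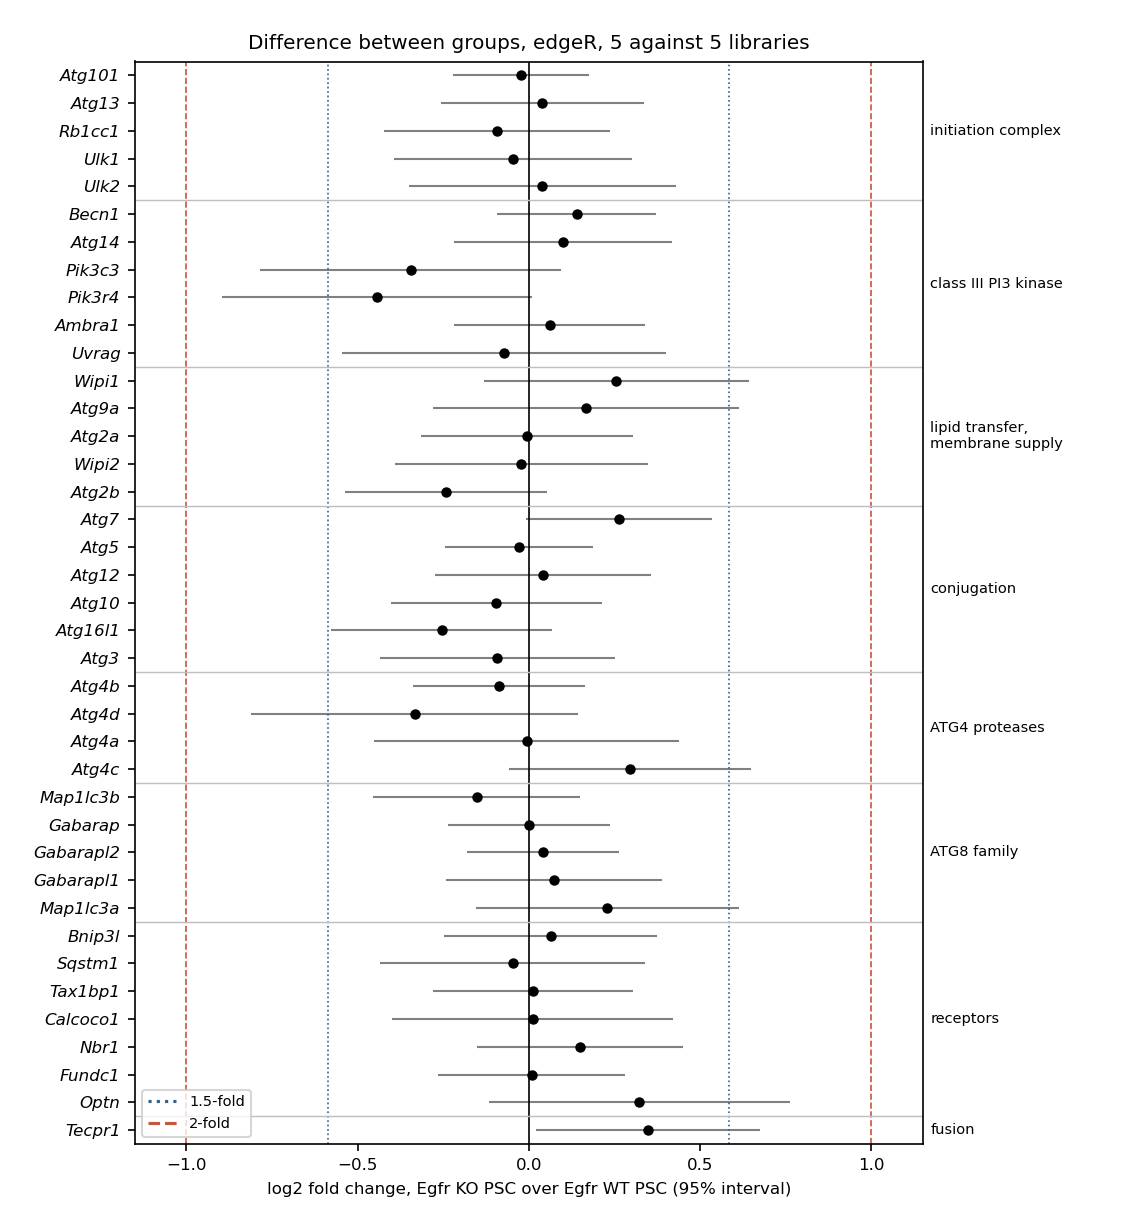
Log2 fold change (Egfr KO PSC relative to Egfr WT PSC) for each of the 39 genes (points) with its 95% interval (lines), from edgeR without covariates on 5 against 5 libraries. Every interval lies inside the dashed 2-fold lines, and 30 lie inside the dotted 1.5-fold lines. Tecpr1 is the only gene whose interval, from 0.02 to 0.67, does not include 0.

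In the initiation complex, 2 genes had a log2 fold change above 0 and 3 below, within −0.09 and 0.04. Atg101, which stabilises ATG13 in the complex, was the most abundant of the 5. Its TPM was 189, 168, 199, 193 and 181 in WT1 to WT5 and 202, 185, 163, 192 and 158 in KO1 to KO5. Both groups covered nearly the same range, and the log2 fold change was −0.02 (SE 0.09, edgeR adjusted p = 0.966). Its residual SD of log2 CPM, 0.112, was the second lowest of the 39. The scaffold gene Atg13 was at 24.6 ± 3.18 TPM in Egfr WT PSC and 25.5 ± 3.90 TPM in Egfr KO PSC (SD, n = 5 in each, as for all means below). Rb1cc1, which encodes the large scaffold FIP200, was at 15.5 ± 2.50 and 14.8 ± 3.199 TPM. The kinase genes were lower, Ulk1 at 8.66 ± 1.29 and 8.79 ± 2.69 TPM and Ulk2 at 1.37 ± 0.26 and 1.42 ± 0.27 TPM. Ulk1 exceeded Ulk2 in 10 of 10 libraries, on average 5.86-fold in TPM.

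The class III PI3 kinase group makes the lipid phosphatidylinositol 3-phosphate. It held the lowest fold change of the 39, that of Pik3r4, which encodes the regulatory subunit VPS15. Pik3r4 was at 21.6, 13.3, 21.5, 16.3 and 11.7 TPM in WT1 to WT5 and at 14.1, 15.5, 11.7, 13.1 and 9.86 TPM in KO1 to KO5. WT1, WT3 and WT4 lay above all Egfr KO PSC libraries, and WT2 and WT5 lay among them. The log2 fold change was −0.44 (SE 0.21, 95% interval −0.89 to 0.01, edgeR adjusted p = 0.623, unadjusted 0.0549). With the fibroblast marker score as a covariate it was −0.81 (edgeR adjusted p = 0.411, unadjusted 0.00238), and with the macrophage score −0.45. Pik3c3, the gene of the catalytic subunit VPS34, was at 41.7, 27.8, 30.9, 26.8 and 22.2 TPM in WT1 to WT5 and at 30.04, 25.2, 15.5, 19.3 and 24.5 TPM in KO1 to KO5. WT1 was highest and KO3 lowest, with overlap between, and the log2 fold change was −0.34 (SE 0.20, edgeR adjusted p = 0.686).

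Becn1, which encodes the scaffold Beclin 1, was the most abundant gene of the kinase group when all its transcript models were summed. It was at 168, 139, 181, 175 and 150 TPM in WT1 to WT5 and at 171, 175, 153, 167 and 202 TPM in KO1 to KO5. KO5 was highest and WT2 lowest, and the log2 fold change was 0.14 (SE 0.11, edgeR adjusted p = 0.762). Of the genes whose products direct the kinase to its complexes, Atg14 was at 26.3 ± 3.69 TPM in Egfr WT PSC and 28.1 ± 4.88 TPM in Egfr KO PSC. Uvrag was at 1.95 ± 0.38 and 1.67 ± 0.38 TPM, and Ambra1, whose product binds Beclin 1, at 9.48 ± 1.41 and 9.57 ± 1.04 TPM. The group thus had 3 members above and 3 below 0, and the 3 below were Pik3r4, Pik3c3 and Uvrag.

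Among the genes for lipid transfer and membrane supply, Wipi1 was the most abundant. WIPI proteins bind the phosphatidylinositol 3-phosphate that the kinase makes. Wipi1 was at 38.6, 28.8, 44.7, 45.2 and 38.7 TPM in WT1 to WT5 and at 56.2, 55.7, 29.95, 44.5 and 49.5 TPM in KO1 to KO5. KO1, KO2 and KO5 lay above all Egfr WT PSC libraries and KO3 near the lowest of them. The log2 fold change was 0.26 (SE 0.18, edgeR adjusted p = 0.735). When 1 library was left out it ran from 0.18 (without WT2) to 0.40 (without KO3, edgeR adjusted p = 0.326). With the macrophage marker score as a covariate it was 0.02. Wipi2 was at 11.1 ± 2.62 and 11.1 ± 1.82 TPM, and Wipi1 exceeded it in 10 of 10 libraries.

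Atg2b encodes one of the lipid transfer proteins that bridge the endoplasmic reticulum and the growing membrane. It was at 6.03, 7.84, 6.40, 7.15 and 9.89 TPM in WT1 to WT5 and at 5.76, 5.65, 8.07, 6.87 and 4.97 TPM in KO1 to KO5. WT5 was highest, 3 Egfr KO PSC libraries lay below all Egfr WT PSC libraries, and the log2 fold change was −0.24 (SE 0.14, edgeR adjusted p = 0.674). Its relative Atg2a was at 24.6 ± 3.06 and 24.9 ± 4.21 TPM and exceeded it in 10 of 10 libraries. Atg9a, the gene of the lipid scramblase on the vesicles that seed the membrane, was at 24.4 ± 5.46 and 26.4 ± 7.18 TPM.

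The conjugation genes had lower levels, and none exceeded 32 TPM in any library. Atg7 encodes the E1-like enzyme that activates both ATG12 and the ATG8 proteins. Its TPM was 25.4, 19.6, 24.2, 26.8 and 23.2 in WT1 to WT5 and 23.2, 26.9, 21.3, 28.1 and 31.5 in KO1 to KO5. KO5, KO4 and KO2 were the highest 3 libraries, and KO3 was the lowest after WT2. The log2 fold change was 0.26 (SE 0.12, 95% interval −0.01 to 0.54, edgeR adjusted p = 0.624, unadjusted 0.0555), and with the macrophage marker score as a covariate it was 0.01.

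Atg16l1, whose product places the conjugation machinery on the membrane, had a fold change of the other sign. It was at 6.43, 6.98, 7.42, 6.94 and 8.14 TPM in WT1 to WT5 and at 6.79, 4.64, 7.22, 5.95 and 4.66 TPM in KO1 to KO5. KO2, KO4 and KO5 lay below all Egfr WT PSC libraries and KO1 and KO3 within their range (log2 fold change −0.25, SE 0.15, edgeR adjusted p = 0.686). Atg5, whose product is joined to ATG12, had the lowest spread of the 39, with a residual SD of 0.111. It was at 21.1, 20.1, 23.6, 25.9 and 22.3 TPM in WT1 to WT5 and at 24.2, 22.7, 21.04, 23.3 and 23.4 TPM in KO1 to KO5. All Egfr KO PSC libraries lay inside the Egfr WT PSC range, and the log2 fold change was −0.03 (SE 0.10, edgeR adjusted p = 0.961).

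The remaining conjugation genes also overlapped between the groups. Atg12, a ubiquitin-like protein gene, was at 21.3 ± 1.81 TPM in Egfr WT PSC and 21.4 ± 3.10 TPM in Egfr KO PSC. The E2-like enzyme genes Atg10 and Atg3 were at 9.21 ± 1.25 and 8.29 ± 0.92 TPM and at 4.69 ± 0.54 and 4.32 ± 0.61 TPM.

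The 4 ATG4 protease genes, whose products cut ATG8 precursors after the glycine shown above, had fold changes of both signs. Atg4b, the most abundant, was at 52.3, 40.8, 53.7, 45.5 and 37.8 TPM in WT1 to WT5 and at 48.7, 37.5, 43.4, 44.4 and 49.0 TPM in KO1 to KO5. The ranges nearly coincided (log2 fold change −0.09, SE 0.12, edgeR adjusted p = 0.867). Atg4c was at 5.39, 3.92, 5.01, 4.07 and 3.203 TPM in WT1 to WT5 and at 4.98, 5.18, 4.25, 5.48 and 6.27 TPM in KO1 to KO5. KO4 and KO5 were highest and WT5 lowest, with overlap between, and the log2 fold change was 0.30 (SE 0.16, edgeR adjusted p = 0.674). Atg4a was at 6.74 ± 1.04 and 6.53 ± 1.82 TPM.

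Atg4d had the largest spread of the 39 genes, with a residual SD of 0.410. It was at 35.0, 31.3, 37.7, 32.9 and 14.3 TPM in WT1 to WT5 and at 32.3, 24.8, 21.4, 18.5 and 19.99 TPM in KO1 to KO5. WT5 was the lowest of all 10 libraries, while the other 4 Egfr WT PSC libraries lay above 4 of the 5 Egfr KO PSC libraries. The log2 fold change was −0.33 (SE 0.22, edgeR adjusted p = 0.719). When 1 library was left out it ran from −0.50 (without WT5) to −0.26 (without KO4). Pik3r4 had the next largest spread, at 0.381.

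Within the ATG8 family Map1lc3b, the gene of LC3B, was the most abundant. Its TPM was 505, 380, 417, 378 and 443 in WT1 to WT5 and 402, 374, 329, 437 and 430 in KO1 to KO5. WT1 was highest and KO3 lowest, and the log2 fold change was −0.15 (SE 0.14, edgeR adjusted p = 0.806). Gabarap was at 285 ± 26.5 and 279 ± 25.4 TPM, with a log2 fold change of 0.0006, the closest to 0 of the 39. Gabarapl2 was at 139 ± 8.19 and 142 ± 21.4 TPM, Gabarapl1 at 78.6 ± 12.9 and 81.7 ± 17.6 TPM, and Map1lc3a at 41.5 ± 9.90 and 48.3 ± 7.74 TPM. The coding sequences of this family are alike in part, as shown above. Whether reads were shared between these genes, and how Salmon divided them, was not tested.

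The receptor genes included the most abundant member, Bnip3l, which encodes the mitochondrial receptor NIX. It was at 396, 489, 390, 425 and 494 TPM in WT1 to WT5 and at 451, 479, 352, 478 and 538 TPM in KO1 to KO5. KO5 was highest and KO3 lowest, so that the Egfr KO PSC range enclosed the Egfr WT PSC range (log2 fold change 0.06, SE 0.14, edgeR adjusted p = 0.928). Sqstm1, the gene of the ubiquitin-binding receptor p62, was at 308 ± 60.9 TPM in Egfr WT PSC and 292 ± 52.7 TPM in Egfr KO PSC. With all transcript models summed, the order of the leading receptors was nearly constant within libraries. Bnip3l was above Sqstm1 in 9 of 10 libraries (all but WT1) and Sqstm1 above Tax1bp1 in 10 of 10. In protein-coding models alone the mean of Bnip3l, 148 TPM, was below those of Sqstm1 (272 TPM) and Tax1bp1 (209 TPM).

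Optn encodes optineurin, a ubiquitin-binding receptor with a role in mitophagy, and had the largest fold change of the receptor group. It was at 15.3, 10.9, 15.4, 15.4 and 19.0 TPM in WT1 to WT5 and at 18.3, 16.2, 12.1, 24.5 and 20.5 TPM in KO1 to KO5. KO4 and KO5 lay above all Egfr WT PSC libraries and KO3 below all but WT2. The log2 fold change was 0.32 (SE 0.20, edgeR adjusted p = 0.71). When 1 library was left out it ran from 0.21 (without KO4) to 0.47 (without KO3). With the macrophage marker score as a covariate it was −0.18. Of the other ubiquitin-binding receptors, Tax1bp1 was at 213 ± 35.3 and 208 ± 20.5 TPM and Nbr1 at 75.7 ± 14.1 and 82.6 ± 11.6 TPM. Calcoco1, an ER-phagy receptor gene, was at 81.2 ± 14.0 and 80.2 ± 20.4 TPM, and Fundc1, a mitophagy receptor gene, at 41.2 ± 4.91 and 39.7 ± 5.72 TPM.

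Tecpr1 was at 43.1, 36.7, 47.2, 54.8 and 41.5 TPM in WT1 to WT5 and at 49.2, 64.2, 36.7, 60.2 and 62.4 TPM in KO1 to KO5. KO2, KO4 and KO5 lay above all Egfr WT PSC libraries, while KO3 was level with the lowest of them. The log2 fold change was 0.35 (SE 0.15, 95% interval 0.02 to 0.67, edgeR adjusted p = 0.593, unadjusted 0.0387). Over the 21 alternatives to this fit its lowest adjusted p was 0.274, without KO3, and it was called in 0 of them.

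KO3 stood apart from the other libraries in these genes. By CPM it was the lowest of the 10 libraries in 21 of the 39 genes (53.8%) and the highest in 0, whereas it was lowest in 18.7% and highest in 18.2% of all genes tested. Its median deviation from each member's mean over the 10 libraries was −0.24 on the log2 scale, against −0.0046 over all genes. The other libraries had medians between −0.07 and 0.11. KO3 had the fewest counts of the 10, the lowest epithelial marker sum (14170 CPM) and the highest endothelial marker sum (47.6 CPM), and the part of these in its autophagy values was not tested.

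Leaving out KO3 moved the comparison towards higher values in Egfr KO PSC. Then 26 of the 39 fold changes were above 0 (49.3% of all genes), with a median of 0.07. Wipi1, Atg7, Atg4c, Optn and Tecpr1 had an unadjusted p under 0.05 in edgeR, which is 12.8% of the members against 10.8% of all genes, and 0 were called. KO5, in contrast, was the highest library in 9 of the 39 genes (23.1%, against 14.2% of all genes), and without it 16 fold changes were above 0. The balance of signs over the 39 genes thus moved with single libraries. KO3 and KO5 are named for their low and high values in these genes, so the direction of each shift follows from that choice.

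Marker scores as covariates also moved the values. Both scores reached higher in Egfr WT PSC, as given above. With 10 libraries the part of a score and that of the group cannot be fully told apart. With the macrophage score 9 of the 39 fold changes were above 0 (49.1% of all genes), and 1 gene, Map1lc3b, had an unadjusted p under 0.05 in edgeR (3.69% of all genes). Of the 16 genes with library values above, 8 then had a fold change more than 1.5 times smaller in size: Becn1 (0.04), Wipi1 (0.02), Atg2b (−0.15), Atg7 (0.01), Atg4c (0.12), Atg4d (−0.09), Optn (−0.18) and Tecpr1 (0.15). In 3 of the 16 it was more than 1.5 times larger in size, Atg101 (−0.07), Atg5 (−0.11) and Map1lc3b (−0.41). With the fibroblast score 18 of the 39 were above 0, and 1 gene, Pik3r4, had an unadjusted p under 0.05 in edgeR (9.68% of all genes). In that fit 4 of the 16 were more than 1.5 times smaller in size, Atg2b (−0.10), Atg16l1 (−0.12), Atg4c (0.11) and Tecpr1 (0.23), and 4 larger, Atg101 (−0.06), Pik3r4 (−0.81), Atg4b (−0.17) and Map1lc3b (−0.27). In both fits 0 of the 39 were called.

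**Figure D3:**
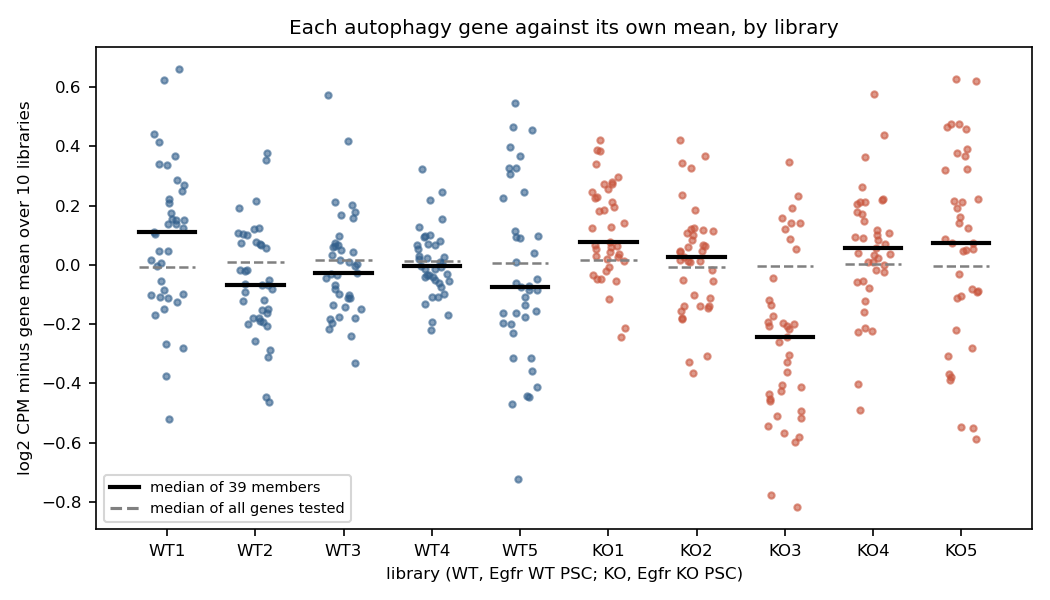
Log2 CPM of each of the 39 genes minus that gene's mean over the 10 libraries, with 1 point per gene, by library (Egfr WT PSC blue, Egfr KO PSC red). Thick lines mark the median of the 39 genes and dashed lines that of all genes tested. The median of KO3, at −0.24, is below those of the other 9 libraries, which lie between −0.07 and 0.11, while the dashed lines stay near 0.

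The deposited tables give a value for each transcript model, and a large part of the autophagy signal lay in models that GENCODE M21 does not label protein coding. Over the 39 genes, 74.98% of the summed TPM was in protein-coding models. In 8 of the 39 genes (20.5%) such models held under 50% of the TPM, against 9.79% of the 14100 tested genes that have a protein-coding model. The medians were 88.3% and 94.4%.

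These 8 genes stand in 5 of the role groups. In Atg4d protein-coding models held 6.19% ± 1.25 (SD, n = 10), and 2 models labelled retained intron, Atg4d-203 and Atg4d-205, held 54.8% and 30.1%. In Map1lc3a the share was 9.11% ± 2.58, and the model Map1lc3a-203, labelled processed transcript, held 90.8%. In Becn1 it was 11.7% ± 1.17, and 71.2% lay in models labelled as targets of nonsense-mediated decay, led by Becn1-201. Bnip3l had 33.0% ± 2.13 in protein-coding models, and the short models Bnip3l-205 and Bnip3l-204, of 789 and 354 bases, held 36.3% and 30.4%. The other 4 were Uvrag at 24.8%, Gabarapl2 at 47.8%, Atg4b at 48.5% and Tecpr1 at 49.2%. For the same number of reads a shorter model receives a higher TPM, because TPM divides by length. The leading models were not all short, with 2123 bases in Becn1-201 and in Atg4d-203, 826 in Map1lc3a-203 and 697 in Atg4d-205. The part of length in these shares, and whether the RNA of these models was present, was not tested.

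**Figure D4:**
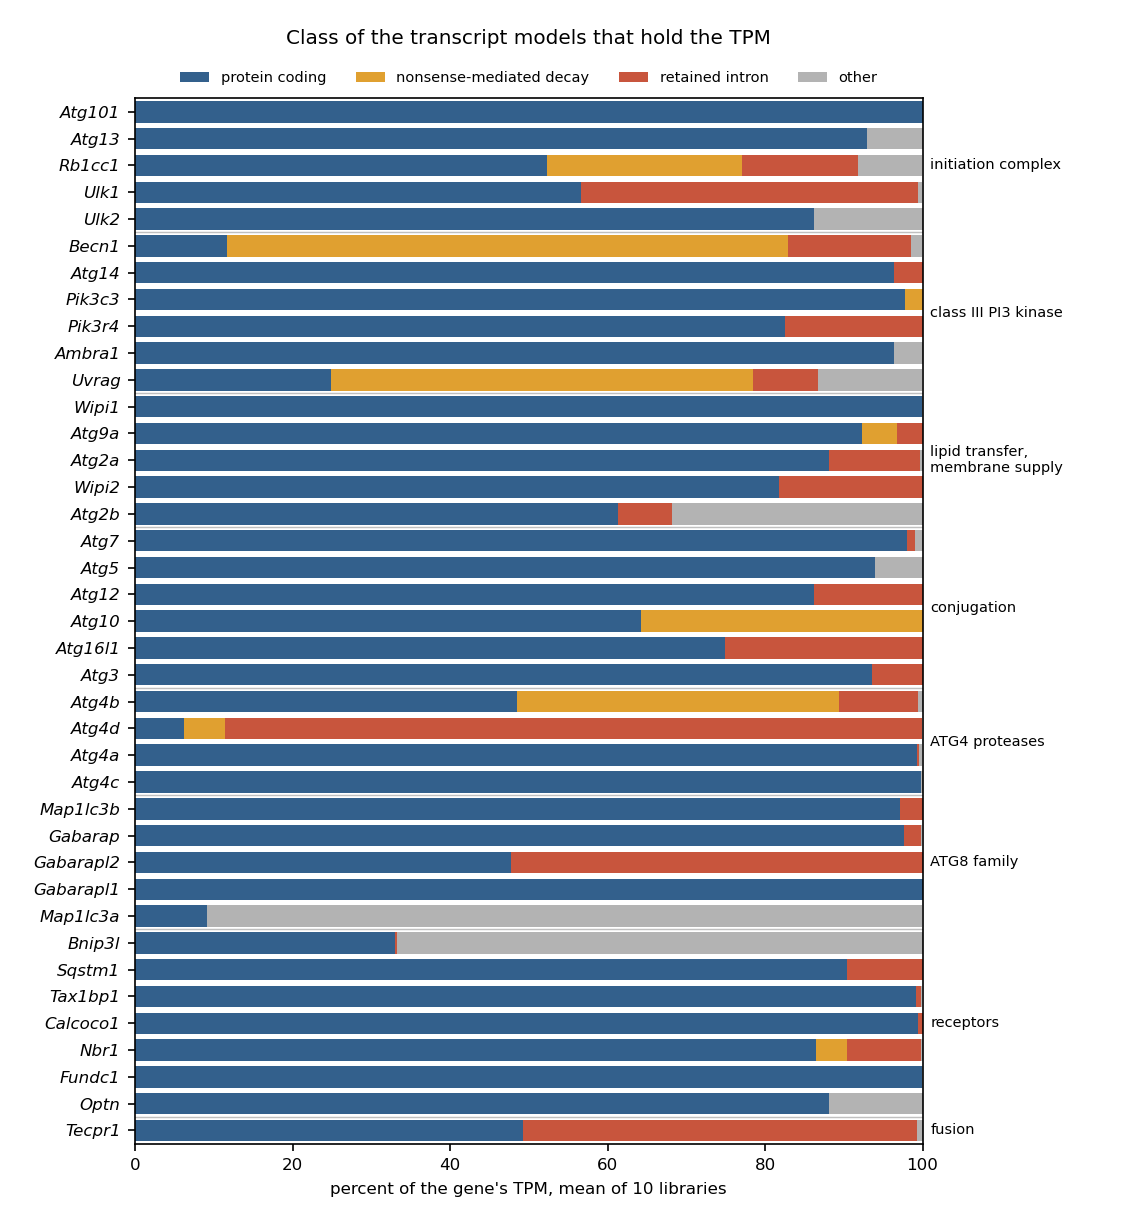
Percent of each gene's TPM by the class that GENCODE M21 gives its transcript models, as the mean of 10 libraries. Blue is protein coding, yellow nonsense-mediated decay, red retained intron and grey other classes. The blue part is shortest in Atg4d (6.19%), Map1lc3a (9.11%) and Becn1 (11.7%).

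The order of levels depended on these models. When only protein-coding models were summed, Map1lc3b, Gabarap and Sqstm1 were the 3 most abundant members, and Bnip3l moved from rank 1 to rank 6 with 148 TPM. Becn1 moved from rank 7 to rank 22 (19.8 TPM), Map1lc3a from 14 to 36 (4.15 TPM) and Atg4d from 18 to 37 (1.62 TPM). Members above 100 TPM then numbered 6 in place of 8. The edgeR comparison on protein-coding models called 0 of the 39.

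The 9 ratios between close relatives were compared between the groups by exact two-sided permutation tests, and 0 had a p under 0.05 when all models were summed (lowest adjusted p over the 9 ratios 0.5). The smallest possible p in this test was 0.00794, so 1 ratio alone could not pass the adjusted threshold of 0.05. The lowest p was that of Atg4d to Atg4c, whose log2 ratio was 2.73 ± 0.36 in Egfr WT PSC and 2.12 ± 0.42 in Egfr KO PSC (SD, n = 5 in each, exact permutation p = 0.0556, adjusted p = 0.5). Atg4d exceeded Atg4c in 10 of 10 libraries, on average 5.37-fold, when all models were summed, and in 0 of 10, at 0.348 of its level, in protein-coding models. There the log2 ratio was −1.19 ± 0.24 in Egfr WT PSC and −1.86 ± 0.49 in Egfr KO PSC (SD, n = 5 in each, exact permutation p = 0.0159, adjusted p = 0.143). The next lowest was Map1lc3b to Map1lc3a, with log2 ratios of 3.38 ± 0.41 and 3.03 ± 0.25 (SD, n = 5 in each, exact permutation p = 0.119, adjusted p = 0.536). Map1lc3b exceeded Map1lc3a in 10 of 10 libraries on either sum, on average 9.22-fold with all models and 99.6-fold with protein-coding models, where the difference between the groups was 0.01. In the other 7 ratios the same member was the higher in all 10 libraries: Ulk1, Atg2a, Atg4b and Sqstm1 over Ulk2, Atg2b, Atg4a and Nbr1, Wipi1 over Wipi2, and Gabarap over both Gabarapl1 and Gabarapl2.

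The share of a gene's TPM in its most abundant transcript model was compared for the 23 members whose other models held at least 20%. Of these, 2 had an exact permutation p under 0.05, where 4.63% of the 8028 genes tested in the same way did, and 0 passed after adjustment over those genes. In Wipi1 the model Wipi1-202 held 57.1%, 60.7%, 56.8%, 59.7% and 60.7% in WT1 to WT5 and 67.5%, 65.2%, 68.6%, 67.8% and 63.4% in KO1 to KO5. All Egfr KO PSC libraries lay above all Egfr WT PSC libraries, KO3 included, which was the case for 1 of the 23 members and for 0.81% of the 8028 genes in either direction. The means were 59.0% ± 1.91 and 66.5% ± 2.16 (SD, n = 5 in each, exact permutation p = 0.00794, adjusted p = 0.977). Both Wipi1-202 and the next model, Wipi1-201, are labelled protein coding, with coding sequences of 1341 and 1314 bases.

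In the receptor gene Nbr1 the model Nbr1-206 held 47.4%, 44.3%, 47.7%, 45.8% and 47.9% in WT1 to WT5 and 53.8%, 47.9%, 51.3%, 58.6% and 58.6% in KO1 to KO5. Only KO2 reached into the Egfr WT PSC range. The means were 46.6% ± 1.55 and 54.0% ± 4.67 (SD, n = 5 in each, exact permutation p = 0.0159, adjusted p = 0.977). With 8028 genes tested and a smallest possible p of 0.00794, no gene could pass the adjusted threshold unless a large part of all genes changed.

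**Figure D5:**
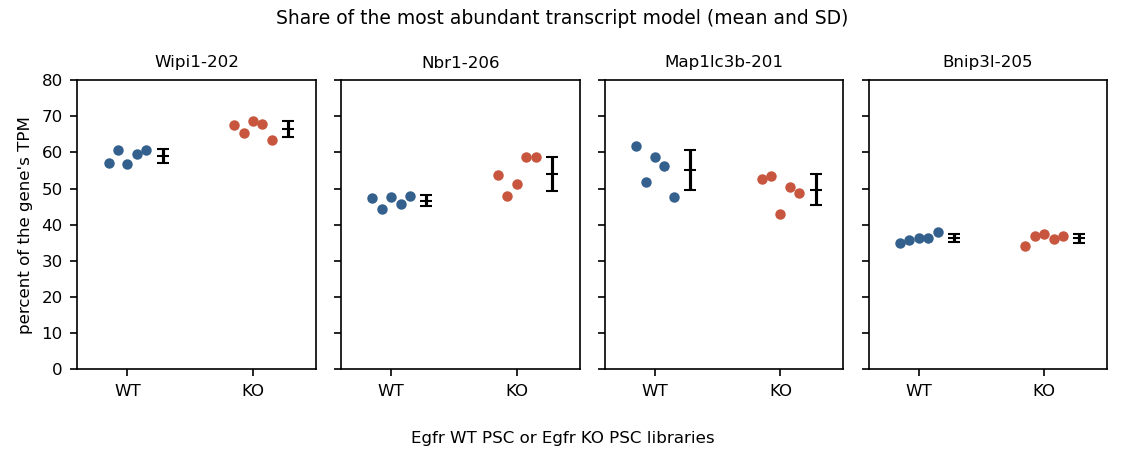
Percent of a gene's TPM in its most abundant transcript model, by library (points) with mean and SD (black), for Wipi1, Nbr1, Map1lc3b and Bnip3l. The Wipi1-202 points of the 2 groups do not overlap (59.0% ± 1.91 and 66.5% ± 2.16), those of Nbr1-206 overlap only through KO2, and those of Bnip3l-205 lie at 36.3% ± 1.13 and 36.3% ± 1.27.

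Genes of neighbouring steps were read from the same fit, in 5 lists of 119 genes in all, and edgeR called 0 in each. Of all 17495 genes tested, 50.1% had a fold change above 0, 1.52% did not overlap in CPM, and DESeq2 called 0.749%. In the fusion, lysosome and other autophagy lists 1 gene each did not overlap, and 0 in the remaining lists. The genes named were picked for low p or high level. The 16 genes of autophagosome-lysosome fusion had 13 fold changes above 0 and 3 below, with a median of 0.09 that turned to −0.0065 with the fibroblast score and −0.03 with the macrophage score as a covariate. Rab7, the small GTPase gene of late endosomes, was at 235 ± 15.5 TPM in Egfr WT PSC and 270 ± 17.7 TPM in Egfr KO PSC, and its 5 Egfr KO PSC libraries all lay above the Egfr WT PSC libraries (log2 fold change 0.23, SE 0.09, edgeR adjusted p = 0.524, unadjusted 0.0226). Epg5, a tethering factor gene, was at 4.70 ± 0.86 and 6.51 ± 1.89 TPM (log2 fold change 0.49, SE 0.19, edgeR adjusted p = 0.525). Vamp8, a SNARE gene, was the most abundant of the list, at 358 ± 33.2 and 374 ± 36.7 TPM.

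Of 18 other autophagy genes, 10 had fold changes above 0 and 8 below. Tmem41b, which encodes a lipid scramblase of the endoplasmic reticulum, was at 81.7, 71.4, 67.6, 74.8 and 70.0 TPM in WT1 to WT5 and at 88.9, 85.5, 94.4, 96.5 and 95.6 TPM in KO1 to KO5. The groups did not overlap, with KO3 among the higher libraries, and the log2 fold change was 0.33 (SE 0.09, edgeR adjusted p = 0.409, DESeq2 adjusted p = 0.0304). Its call thus differed between the tools. Wdr45b, a WIPI family gene, was at 73.6 ± 7.30 and 90.1 ± 11.6 TPM (edgeR adjusted p = 0.498). Atg16l2, a relative of Atg16l1, was at 15.4 ± 3.46 and 12.3 ± 3.18 TPM (edgeR adjusted p = 0.547). Vmp1, a scramblase gene related to Tmem41b, was the most abundant of the list at 558 ± 77.6 and 498 ± 50.1 TPM.

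The lysosome list of 35 genes had 15 fold changes above 0 and 20 below. Ctsl, the gene of the protease cathepsin L, was at 360 ± 31.4 TPM in Egfr WT PSC and 550 ± 70.9 TPM in Egfr KO PSC without overlap (log2 fold change 0.61, edgeR adjusted p = 0.313, DESeq2 adjusted p = 0.00508). Ctss, a cathepsin gene of macrophages, was at 3.11 ± 2.79 and 1.07 ± 0.36 TPM (edgeR adjusted p = 0.509), beside the macrophage marker sums given above, whose part in it was not tested. Ctsb was the most abundant, at 1153 ± 49.8 and 1169 ± 239 TPM. The 33 regulators of mTORC1 and of the MiT/TFE transcription factors had 13 above and 20 below 0 and none at an unadjusted p under 0.05. In this list the lowest p were those of Lamtor1, at 97.2 ± 5.96 and 108 ± 10.3 TPM, and Rheb, at 84.8 ± 20.8 and 65.7 ± 14.6 TPM, and the most abundant gene was Lamtor2, at 259 ± 18.1 and 254 ± 34.5 TPM.

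Of 17 other mitophagy and ER-phagy receptor genes 16 were tested, since Calcoco2 did not pass the filter, with 6 fold changes above 0 and 10 below. Bcl2l13, a mitophagy receptor gene, was at 35.4 ± 6.33 and 48.4 ± 7.62 TPM (log2 fold change 0.32, SE 0.12, edgeR adjusted p = 0.51). Atl3 was at 19.8 ± 1.897 and 23.6 ± 3.93 TPM. Bnip3, the close relative of Bnip3l, was the most abundant of the list, at 307 ± 80.3 and 359 ± 108 TPM.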

How the data were processed

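The 10 RNA-seq libraries were grouped by their labels, 5 to a group. Per the labels' protocols they were made with a low-input kit whose PCR cycles depended on RNA input, which is not stated per library. The authors deposited, per transcript, an estimated count, a TPM and an effective length. Per the submitters' processing notes these came from Salmon 1.9.0 with GRCm39, and the deposited estimated counts are not normalised. Its annotation release: not given in the sources used here.

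Transcripts were assigned to genes by identifier without version through GENCODE M21 (GRCm38), which gave names, classes and sequences but no coordinates. A gene was found for 137063 of 147828 transcripts (92.7%), which held 98.1% to 98.7% of counts. The others were left out. Counts were summed per gene, rounded, and fitted with the edgeR 4.0.16 quasi-likelihood F test (R 4.3.3, TMM, filterByExpr with minimum count 10), with Benjamini-Hochberg adjustment over 17495 genes and a threshold of 0.05. SE and intervals were derived from F. CPM are TMM-normalised, and log2 CPM carry a prior count of 2. Deposited TPM were summed per gene, and ratios used log2 with a pseudocount of 0.1. Ratios and transcript shares were compared by exact two-sided permutation over 252 assignments. The design as written adjusted the shares over the members tested. They were instead adjusted over all genes so tested. Scripts were tested on simulated data. Every pair of libraries differed by more than counting noise (chi-square over degrees of freedom at least 34.6).

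The 39 members, the 5 neighbouring lists and the markers were chosen with earlier results of these data known. All members were named with their TPM, and library values were given for those with an unadjusted p under 0.05, the 8 of lowest p, the most abundant of each role and the 2 of lowest and of highest spread. From each list the 2 genes of lowest p and the most abundant were named, and Atg16l2 was added after its values were seen. Alternatives were DESeq2 1.42.0, limma voom (3.58.1) with sample weights, RLE and upper-quartile scaling, no filter, limma-trend on log2(TPM + 0.1), effective-length offsets, covariates (fibroblast or macrophage marker score, the number in the deposited file's name) and each library left out. Protein-coding models only was added after seeing the data.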

Additional observations from a re-analysis of the deposited data

Results flagged for a closer look

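In 4 of 78 groups of 5 values (39 genes in 2 groups), the highest or lowest library stood off from its group by more than 0.71 of the group's range, and chance alone does so in about 1 in 20 groups. Rb1cc1 was at 19.9 TPM in WT5, with the other Egfr WT PSC libraries between 13.9 and 15.1 TPM. Atg4a was at 8.54 TPM in WT1, with the others between 5.91 and 6.62 TPM. Atg4d was at 14.3 TPM in WT5, with the others between 31.3 and 37.7 TPM. Fundc1 was at 29.7 TPM in KO3, with the other Egfr KO PSC libraries between 40.6 and 44.2 TPM.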

How the results depend on the processing

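The number of the 39 genes called was 0 in edgeR and under each of the 21 alternatives to that fit. The number called among all genes was 0 in edgeR, 131 with DESeq2, 3 with limma voom, 1 without the filter on low counts, 1 with limma-trend on log2 TPM, and between 0 and 4 when 1 library was left out (2 without WT5, 4 without KO1, 1 without KO3). DESeq2, which called 0.749% of all genes, called 1 of the 35 genes of the lysosome list (Ctsl) and 1 of the 18 other autophagy genes (Tmem41b). The median log2 fold change of that last list was 0.05, and it became 0.17 with the fibroblast score and −0.06 with the macrophage score as a covariate, and −0.05 without WT3. That of the fusion list became −0.0065 and −0.03 with these scores. With the macrophage score as a covariate 9 of the 39 fold changes were above 0 (49.1% of all genes), and the cause was not tested. Fold changes near 0 turned sign. Atg101 was at 0.003 with limma voom, 0.004 with the number in the file name as covariate and 0.004 without KO5, and ran from −0.0693 to 0.0331 (without KO3) when 1 library was left out. Atg5 was at 0.0244 with limma-trend, 0.0533 with effective-length offsets, 0.008 with the number in the file name and 0.0071 without WT4, and ran from −0.0647 to 0.0177 (without KO3) when 1 library was left out. Optn was at −0.1765 and Bnip3l at −0.0481 with the macrophage score, and Bnip3l at −0.0244 without KO5. The difference in the log2 ratio of Map1lc3b to Map1lc3a was 0.0112 in protein-coding models. The cause of these reversals was not tested. No paired analysis was possible because the labels give no replicate numbers and those used here only name libraries in accession order. The number in the file name, which libraries of both groups share and whose meaning is not stated, entered 1 fit as a covariate, with 0 genes called. All 39 passed the count filter, the interval of 9 reached past 1.5-fold in the edgeR fit without covariates, and the part of depth in its width was not tested.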
